A study of Mus musculus with 8 samples.

Results

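The receptors for GABA, glycine and glutamate were examined in dorsal root ganglia of mice with and without Tmem184b. Members were chosen by gene symbol, from the name patterns of the GABA-A, GABA-B, glycine, AMPA, kainate, NMDA, delta and metabotropic glutamate receptor subunits. The patterns found 52 genes among the 40800 in the deposited table, and the patterns use gene names only. Whole-ganglion RNA came from 4 wild-type C57BL/6 mice, named wild types 1, 3, 4 and 8 after their labels, and from 4 mice homozygous for a Tmem184b gene trap on the C57BL/6 background, named mutants 1, 2, 3 and 4. All animals were 6 months old, and per-sample values below follow that order. A gene trap is an inserted cassette that captures splicing and cuts the transcript short. The labels give no sex, litter, dissection day or sequencing batch. The leading numbers in the deposited column names, whose meaning is not given, are lower for every mutant than for every wild type. A batch that split the genotypes cannot be told apart from the trap, and the p-values measure the spread between these 8 animals only.

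GABA-A and glycine receptors are chloride channels made of 5 subunits around a pore. Sensory neurons hold much chloride, so GABA depolarizes them, and at their spinal terminals this is one route to presynaptic inhibition. GABA-B receptors are paired G-protein-coupled receptors that reduce transmitter release. AMPA, kainate, NMDA and delta receptors form the ionotropic glutamate receptor superfamily, and metabotropic glutamate receptors signal through G proteins. Kainate receptors rich in the GluK1 subunit are a classical feature of dorsal root ganglion neurons.

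Levels are CPM, read counts scaled to a common library total, given as such or as log2 CPM with a small prior count, and a difference is mutant minus wild type in log2 CPM. A gene was called when limma gave an adjusted p under 0.05 over all genes tested. The libraries held 6183618 to 7983821 reads, and 15030 genes passed the filter of log2 CPM above 0 in at least 4 of 8 samples. Tmem184b was at 171 ± 8.44 CPM in wild-type animals and 6.65 ± 1.30 CPM in mutants (SD, n = 4 each), low in all 4 libraries labelled mutant. Tmem184b lies on chromosome 15, which holds none of the 52 receptor genes. All 9 pan-neuronal markers were present in every library, with sums of 9236 to 10270 CPM in wild-type animals and 9270 to 9963 CPM in mutants. Of these 9 markers, 1 was called lower, against 2.64% of all genes tested, and none higher. Over all genes tested the median difference was 0.07, and 64.4% of differences were positive.

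Of the 52 receptor genes, 40 were tested and 5 were called (12.5%), against 5.46% of all genes tested. Gabra2 and Grik3 rose, against 2.81% of all genes called higher, and Grik1, Grik4 and Gria1 fell, against 2.64% called lower. With each sample centred on its median, 1 receptor gene was called higher and 5 lower. By unadjusted p under 0.05 in limma, 20 of the 40 differed, against 21.3% of all genes. The 15 of these that were not called comprised 12 with higher and 3 with lower values in the mutant. This balance depended on scaling. All 20 comprised 14 higher and 6 lower, against 7 and 8 with median centring and 10 and 7 with quantile normalization. The genotypes did not overlap for 9 of the 40 (22.5%), against 12.4% of all genes. Differences were positive for 27 (67.5%, against 64.4% of all genes) and negative for 13. Their median was 0.18, against 0.07 over all genes, and their median size 0.23, against 0.14. Of the 40 tested genes, 34 were above 0 log2 CPM in all 8 samples and 6 in 4 to 7 samples, and each of those 6 was above 0 in at least 2 samples of each genotype.

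**Figure D1:**
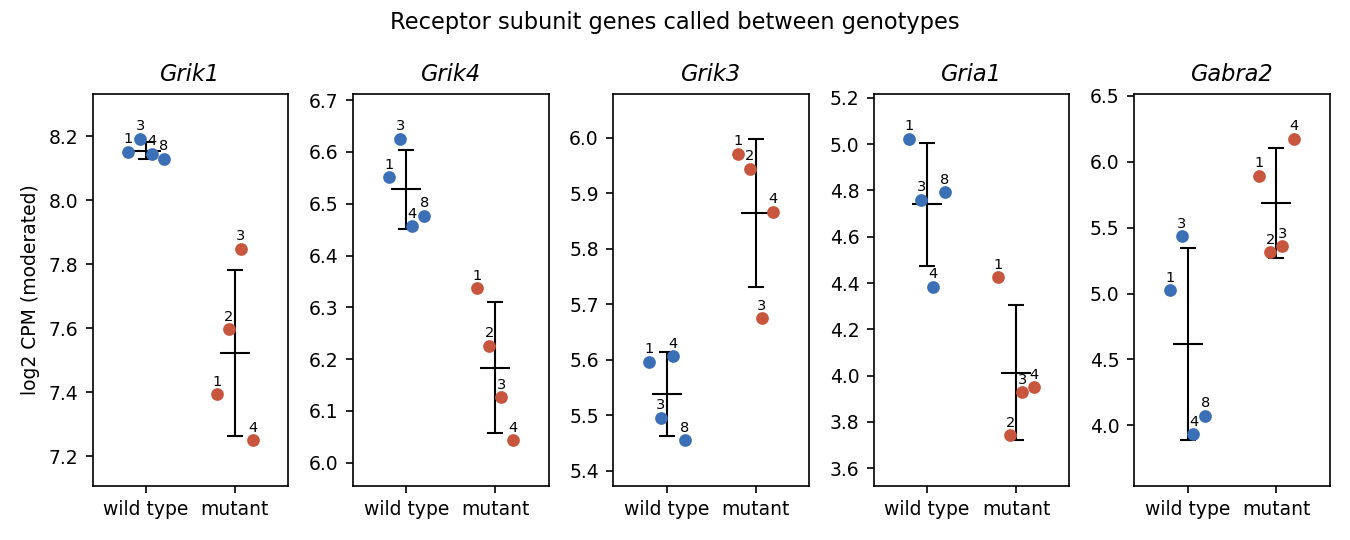
Log2 CPM of the 5 called receptor genes in each sample, with 1 point for each animal (numbers are the animals' labels), a long bar at each group mean and whiskers of 1 SD (n = 4); the y axes differ and do not start at 0. Grik1 and Grik4 are lower and Grik3 is higher in every mutant than in every wild type, while the groups overlap for Gria1 (wild type 4 at 4.38, mutant 1 at 4.43) and Gabra2 (wild type 3 at 5.43, mutant 2 at 5.31).

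The promoters of 3 of the 5 called genes are shown, because 2 kainate receptor genes that moved in opposite directions and the called GABA-A gene can then be set side by side. Each is the 120 bases before the outermost annotated start, 5′ to 3′ along the gene's own strand, from RefSeq for GRCm38.p6. Capitals mark the letters GGGCGG, a GC box, the core recognised by Sp1-type factors.
Grik4, which fell, chr9:42944494-42944613, minus strand: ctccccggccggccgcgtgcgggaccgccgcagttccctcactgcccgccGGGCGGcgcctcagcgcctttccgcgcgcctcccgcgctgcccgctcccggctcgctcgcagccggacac
Grik3, which rose, chr4:125490576-125490695, plus strand: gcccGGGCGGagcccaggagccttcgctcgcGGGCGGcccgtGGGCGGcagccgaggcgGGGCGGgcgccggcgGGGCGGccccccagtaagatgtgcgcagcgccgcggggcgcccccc
Gabra2, which rose, chr5:71095850-71095969, minus strand: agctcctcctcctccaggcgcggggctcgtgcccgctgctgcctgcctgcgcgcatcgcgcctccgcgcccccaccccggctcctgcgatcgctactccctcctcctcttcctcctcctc
The 3 stretches are 81.7%, 85.8% and 74.2% G and C in that order. The Grik3 stretch holds 5 GC boxes read on either strand, the Grik4 stretch 1 and the Gabra2 stretch none, although Gabra2 has 1 within 250 bases. RefSeq promoter windows were matched for 36 of the 52 receptor genes. Of these, 20 held a GC box within 250 bases before the start and 4 held the TATA box letters TATAAA, on either strand. The same motifs were in 32.7% and 12.4% of all 32851 windows of that length. Those shares count single windows, whereas a receptor gene counted if any of its windows matched, so the measures are not alike. These matches describe letters only.

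Kainate receptor genes were the family with the most calls. Grik1 and Grik4 fell, Grik3 rose, and Grik2 and Grik5 were not called. So 3 of 5 members passed the test, against 5.46% of all genes tested. Grik1 encodes GluK1, the main pore-forming kainate subunit of sensory neurons. Its gene (ENSMUSG00000022935) spans chromosome 16 from 87895900 to 88290265 on the minus strand of GRCm38. Grik1 was at 8.15, 8.19, 8.15 and 8.13 log2 CPM in the wild types and at 7.39, 7.60, 7.85 and 7.25 in the mutants. The wild types lay within a narrow band, and the mutants were spread widely below it, with mutant 3 nearest and mutant 4 farthest. The means were 285 ± 5.28 and 186 ± 34.2 CPM (SD, n = 4 each). The difference was -0.63 (SE 0.10, limma adjusted p = 0.00197, exact two-sided permutation p = 0.0286, the smallest that 4 against 4 allows), which is 64.5% of the wild-type level. In whole ganglia, fewer cells of a type and less RNA per cell cannot be told apart.

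Grik4 encodes GluK4, a high-affinity subunit that needs a GluK1 to GluK3 partner. The gene (ENSMUSG00000032017) spans chromosome 9 from 42518135 to 42944493 on the minus strand. Grik4 was at 6.55, 6.63, 6.46 and 6.48 log2 CPM in the wild types and at 6.34, 6.23, 6.13 and 6.04 in the mutants. Every mutant was below every wild type, and the mean CPM fell from 92.1 ± 4.96 to 72.6 ± 6.43 (SD, n = 4 each). The difference was -0.34 (SE 0.07, limma adjusted p = 0.0134, exact permutation p = 0.0286). The calls of Grik1 and Grik4 were lost in 1 of 19 alternatives, a fit without the variance trend (limma adjusted p = 0.0646 and 0.0960).

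Grik3 encodes GluK3, a subunit of low glutamate affinity. The gene (ENSMUSG00000001985) spans chromosome 4 from 125490700 to 125714173 on the plus strand. Grik3 was at 5.60, 5.50, 5.61 and 5.45 log2 CPM in the wild types and at 5.97, 5.94, 5.68 and 5.87 in the mutants. All mutants were above all wild types, with mutant 3 just above. The means were 46.2 ± 2.41 and 58.2 ± 5.23 CPM (SD, n = 4 each), and the difference was 0.33 (SE 0.08, limma adjusted p = 0.0256, exact permutation p = 0.0286). The call was kept in 9 of 19 alternatives. It was lost with median centring (difference 0.23, limma adjusted p = 0.105), without the variance trend (0.11), and on leaving out one of wild types 1 (0.0535), 3 (0.0718) and 8 (0.0637) and mutants 1 (0.0809), 2 (0.0748) and 4 (0.0532).

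Grik2 and Grik5 did not pass. Grik2, which encodes GluK2, was at 4.10, 4.24, 4.33 and 4.18 log2 CPM in the wild types and at 4.27, 4.53, 4.59 and 4.38 in the mutants. The groups overlapped at wild type 4, and the difference was 0.23 (95% interval 0.01 to 0.45, limma adjusted p = 0.209). Grik5, which encodes the other high-affinity subunit GluK5, differed by -0.18 (95% interval -0.36 to 0.01, limma adjusted p = 0.251). Within a sample, where library scaling cancels, the log2 ratio of Grik1 to Grik2 was 4.06, 3.95, 3.81 and 3.95 in wild-type animals and 3.13, 3.07, 3.26 and 2.87 in mutants. The ratio was lower in all 4 mutants by 0.86 (exact permutation p = 0.0286, 0.0571 after adjustment over the 4 ratios tested).

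Per kilobase of annotated exon, the 5 kainate subunits summed to 79.3 ± 2.72 CPM per kb in wild-type animals and 61.2 ± 6.04 in mutants (SD, n = 4 each), which is 77.1% of the wild-type sum. Grik1 made up 53.5% ± 1.02 of that sum in wild-type animals and 45.0% ± 4.50 in mutants. The share of Grik3 was 6.50% ± 0.33 in wild-type animals and 10.7% ± 1.62 in mutants, and the share of Grik4 was 19.5% and 20%. With the longest transcript as the length, the Grik1 share was 65.1% and 57.0%. These sums and shares are descriptions with no test.

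**Figure D2:**
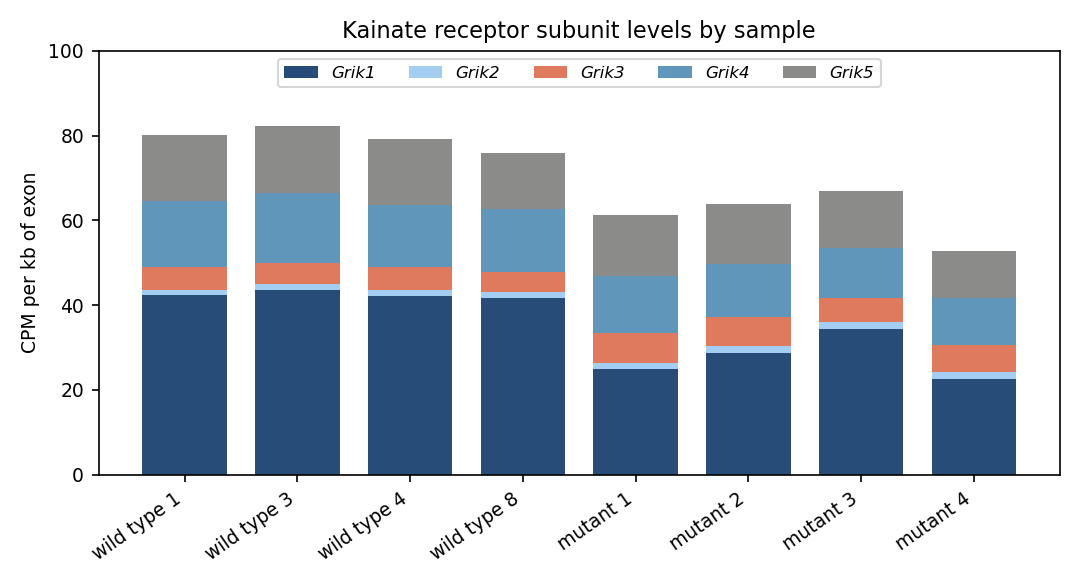
Stacked bars of the 5 kainate receptor subunits in each of the 8 samples, in CPM per kb of exon. The sums are 75.8 to 82.3 in wild-type animals and 52.8 to 66.9 in mutants, and Grik1 is the bottom and tallest block of each bar.

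Markers of 2 nociceptor classes were called lower in the mutant, as Grik1 was. All 7 markers of NP1 neurons, the Mrgprd-positive non-peptidergic nociceptors, were called lower, against 2.64% of all genes tested. They included Mrgprd (difference -0.85, limma adjusted p = 0.00190) and P2rx3 (-0.64, limma adjusted p = 0.00178). Their sum was 1418 to 1538 CPM in wild-type animals and 787 to 1135 CPM in mutants, with none at 0. In mutants 1 to 4 the NP1 sum was 845, 1038, 1135 and 787 CPM, the same order of samples as for Grik1. Of the 8 NP3 markers, for nociceptors that express Nppb and Sst, 7 were called lower. The marker lists were chosen with earlier results of these data known. Nppb had 13 to 40 reads in each wild type, 1 in mutant 2 and 0 in the other mutants. Sst was at 10.8 ± 4.59 CPM in wild-type animals and 0.376 ± 0.275 in mutants, and Il31ra at 37.7 ± 5.58 and 3.68 ± 1.13 CPM (SD, n = 4 each). The sum of the NP3 list was 672 to 720 CPM in wild-type animals and 458 to 500 CPM in mutants, but most of it was Jak1, a widely expressed kinase, at 544 ± 12.4 and 439 ± 19.9 CPM (SD, n = 4 each). In mutants 1 to 4 the NP3 sum was 484, 463, 458 and 500 CPM, the reverse of the order for Grik1. The lists for peptidergic nociceptors (1153 to 1214 and 1131 to 1256 CPM) and large neurofilament neurons (3238 to 3635 and 3623 to 3959 CPM) had no called member and none at 0. The part of these neuron classes in the receptor differences was not tested.

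**Figure D3:**
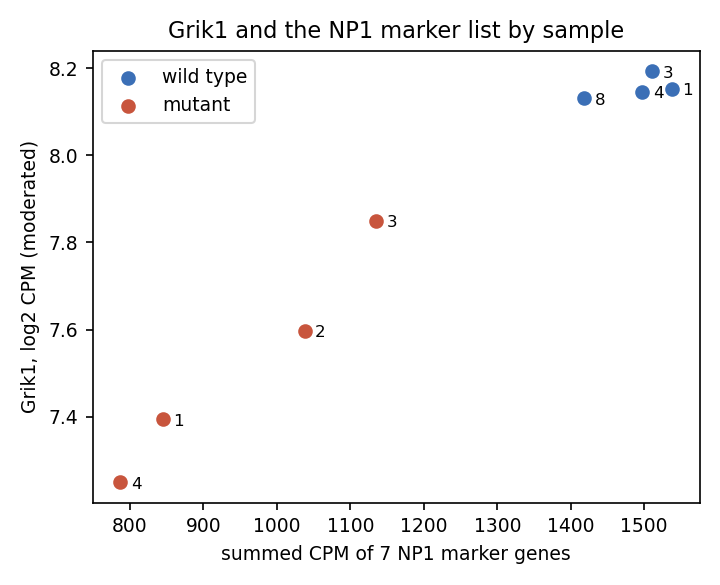
Each point is 1 animal, with the summed CPM of 7 NP1 markers on the x axis and Grik1 in log2 CPM on the y axis; numbers are the animals' labels. The 4 wild types lie at the upper right (1418 to 1538 CPM, 8.13 to 8.19 log2 CPM), and mutants 4, 1, 2 and 3 lie below them in that order.

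By correlation of log2 CPM centred within genotype over the 8 samples, the genes most like Grik1 among those tested were Syt1, a synaptic vesicle calcium sensor (r = 0.987), Clgn, an endoplasmic reticulum chaperone (r = 0.982), and Gnb4, a G-protein beta subunit (r = 0.979). Their differences were -0.25, -0.22 and -0.40, smaller than that of Grik1. The SD of Grik1 was 0.03 log2 CPM in wild-type animals and 0.26 in mutants, so these correlations rest mostly on the mutants. They were picked as the highest of all genes, share the same libraries and are descriptions only.

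AMPA receptors, the fast glutamate channels, had 1 call among 4 subunits: Gria1 fell, and the other 3 were higher in the mutant without a call. Gria1 encodes GluA1. The gene (ENSMUSG00000020524) spans chromosome 11 from 57011387 to 57330244 on the plus strand. Gria1 was at 5.02, 4.76, 4.38 and 4.79 log2 CPM in the wild types and at 4.43, 3.74, 3.93 and 3.95 in the mutants. Mutant 1 was just above wild type 4, and the other 3 mutants were below every wild type. The means were 26.8 ± 4.77 and 16.1 ± 3.53 CPM (SD, n = 4 each), and the difference was -0.73 (SE 0.15, limma adjusted p = 0.0133, exact permutation p = 0.0571). The call was kept in 16 of 19 alternatives, and was lost without the variance trend (0.0990), without wild type 1 (difference -0.63, limma adjusted p = 0.0532), and with only the 6 samples numbered 1, 3 and 4 (0.0851).

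Gria4 encodes GluA4 and was the most abundant AMPA subunit per kilobase. Gria4 was at 5.86, 6.23, 5.99 and 6.34 log2 CPM in the wild types and at 6.32, 6.28, 6.63 and 6.80 in the mutants. The groups overlapped through wild type 8, and the difference was 0.40 (95% interval 0.15 to 0.66, limma adjusted p = 0.0657). Gria4 was called without wild type 8 (limma adjusted p = 0.0438) and without mutant 2 (limma adjusted p = 0.0478). Gria3, for GluA3, was at 5.08, 4.92, 5.10 and 5.17 log2 CPM in the wild types and at 5.37, 5.30, 5.38 and 5.23 in the mutants. Its groups did not overlap, and the difference was 0.25 (95% interval 0.08 to 0.42, limma adjusted p = 0.0793). Gria2, whose edited subunit GluA2 makes the channel impermeable to calcium, differed by 0.20 (95% interval -0.01 to 0.41, limma adjusted p = 0.273).

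The log2 ratio of Gria2 to Gria1 was -0.25, 0.26, 0.64 and 0.49 in wild-type animals and 0.69, 1.55, 1.30 and 1.29 in mutants. The ratio was higher in every mutant than in every wild type, by 0.92 (exact permutation p = 0.0286, adjusted 0.0571). Of the summed AMPA level of 20.9 ± 2.01 CPM per kb in wild-type animals and 23.6 ± 2.41 in mutants (SD, n = 4 each), Gria1 made up 21.3% ± 4.06 and 11.4% ± 2.85. Gria4 made up 52.4% ± 3.96 and 61.3% ± 4.86 of those sums.

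GABA-A receptor subunits, of which 19 genes were found and 13 tested, had 1 call. Gabra2 rose, and 11 of the 13 differences were positive, where 64.4% of all genes tested had a positive difference. Gabra2 encodes the alpha-2 subunit, which helps form the benzodiazepine site. The gene (ENSMUSG00000000560) spans chromosome 5 from 70957597 to 71095849 on the minus strand. Gabra2 was at 5.02, 5.43, 3.93 and 4.07 log2 CPM in the wild types and at 5.89, 5.31, 5.36 and 6.17 in the mutants. Wild types 4 and 8 were low and wild types 1 and 3 higher, and wild type 3 lay above mutants 2 and 3. The labels name the C57BL/6 strain without a substrain for any animal, so a substrain difference between animals or genotypes was not tested. The means were 26.7 ± 13.4 and 52.8 ± 15.6 CPM (SD, n = 4 each), and the difference was 1.07 (SE 0.28, limma adjusted p = 0.0379, exact permutation p = 0.0857).

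The call of Gabra2 was kept in 9 of 19 alternatives. It was lost with quantile normalization (limma adjusted p = 0.0582), without the variance trend (0.176), with robust variances (0.212), and on leaving out one of wild types 1 (difference 1.21, limma adjusted p = 0.0511), 4 (0.84, 0.0675) and 8 (0.89, 0.0983) and mutants 1 (1.0, 0.101) and 4 (0.91, 0.108). The summed GABA-A level was 60.4 ± 4.45 CPM per kb in wild-type animals and 70.3 ± 4.09 in mutants (SD, n = 4 each), and Gabra2 made up 5.68% ± 2.55 and 9.74% ± 2.33 of it.

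Several other GABA-A subunits were higher in the mutant without passing the test. Gabrb1 was at 2.38, 2.41, 1.77 and 1.94 log2 CPM in the wild types and at 2.54, 2.92, 2.88 and 2.62 in the mutants, with no overlap (difference 0.62, limma adjusted p = 0.0741). Gabrb2 was at 4.24, 4.36, 4.03 and 4.59 log2 CPM in the wild types and at 4.61, 4.65, 4.55 and 4.91 in the mutants (difference 0.37, limma adjusted p = 0.0929). The groups of Gabrb2 overlapped through wild type 8 alone, and Gabrb2 was called without that animal (limma adjusted p = 0.0436). Gabrg1 was at 3.55, 3.96, 4.04 and 4.17 log2 CPM in the wild types and at 4.15, 4.33, 4.43 and 4.76 in the mutants (difference 0.49, limma adjusted p = 0.0699). Mutant 1 lay just below wild type 8. Gabra3 was at 4.37, 3.89, 3.99 and 4.05 log2 CPM in the wild types and at 4.34, 4.29, 4.44 and 4.22 in the mutants (difference 0.25, limma adjusted p = 0.226), with overlap at wild type 1. Gabre, which encodes the epsilon subunit, rested on few reads: 5, 9, 2 and 4 in wild-type animals and 12, 7, 8 and 14 in mutants (difference 0.96, limma adjusted p = 0.106).

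GABA-A genes lie in clusters, and the tested members were compared by cluster as a description. The chromosome 5 cluster from 70751047 to 72149037 holds Gabrg1, Gabra2, Gabra4 and Gabrb1. All 4 differences were positive, from 0.31 to 1.07, where 64.4% of all genes tested had a positive difference. The difference of Gabra4, 0.31, had an SE of 0.32 and rested on 5 to 16 reads. On the X chromosome Gabre and Gabra3 differed by 0.96 and 0.25, and on chromosome 7 Gabrg3 and Gabra5 by -0.17 and -0.02. Gabra4 and Gabrb1 overlap in exons on opposite strands, and the use of strand in counting is not given in the sources used here, so their reads may be shared. Gabra5 encodes the alpha-5 subunit of extrasynaptic receptors, and Gabrd, the delta subunit, differed by 0.17 on 2 to 9 reads.

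GABA-B and glycine receptors had no call. Gabbr1 and Gabbr2 encode the 2 obligate partners of the GABA-B receptor, and had the highest levels of all 52 genes per kilobase of exon, 95.4 and 62.5 CPM per kb in wild type. Gabbr1 was at 9.51, 9.60, 9.52 and 9.51 log2 CPM in the wild types and at 9.42, 9.48, 9.50 and 9.39 in the mutants (difference -0.08, 95% interval -0.19 to 0.02, limma adjusted p = 0.354). Gabbr2 was at 8.71, 8.78, 8.64 and 8.69 log2 CPM in the wild types and at 8.58, 8.48, 8.60 and 8.41 in the mutants (difference -0.19, 95% interval -0.31 to -0.07, limma adjusted p = 0.0657). For both genes all mutants lay below all wild types, narrowly for Gabbr1. Gabbr2 was called with median centring (difference -0.28, limma adjusted p = 0.0403) and without mutant 3 (-0.22, limma adjusted p = 0.0452).

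Glrb, the beta subunit that anchors glycine receptors to gephyrin, was at 7.12, 7.36, 7.17 and 7.32 log2 CPM in the wild types and at 7.43, 7.33, 7.35 and 7.69 in the mutants. Mutants 2 and 3 lay within the wild-type range, and the difference was 0.21 (95% interval 0.03 to 0.38, limma adjusted p = 0.152). Among the alpha subunits, which carry the glycine site, only Glra1 passed the filter on low values, with 4, 6, 6 and 18 reads in wild-type animals and 6, 11, 2 and 9 in mutants (difference -0.08). Glra2, Glra3 and Glra4 had at most 5 reads in any library.

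NMDA receptors, which need the GluN1 subunit encoded by Grin1, had no call among 6 tested genes. Grin1 was at 6.95, 7.15, 6.93 and 6.99 log2 CPM in the wild types and at 6.85, 6.81, 6.94 and 6.80 in the mutants. Mutant 3 lay within the wild-type range, and the difference was -0.15 (95% interval -0.29 to -0.02, limma adjusted p = 0.174). Grin3a, for the glycine-binding GluN3A, was at 52.0 ± 5.13 CPM in wild-type animals and 54.1 ± 5.68 in mutants (SD, n = 4 each), a difference of 0.05. Of the glutamate-binding GluN2 genes, Grin2d was highest at 6.87 ± 0.65 CPM in wild-type animals and 7.46 ± 1.80 in mutants (SD, n = 4 each). Grin2b had 5 to 24 reads, Grin2c 7 to 22 and Grin2a 1 to 8. The 2 delta receptors, which bind cerebellins, were not called. Grid1 was at 4.11, 4.52, 4.22 and 4.70 log2 CPM in the wild types and at 4.65, 4.74, 4.50 and 4.82 in the mutants (difference 0.29, limma adjusted p = 0.200), with overlap at wild types 3 and 8.

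Metabotropic receptors had no call among 6 tested genes, and their most abundant members were of group III, which inhibits adenylyl cyclase and transmitter release. Grm7 was at 6.63, 6.51, 6.57 and 6.58 log2 CPM in the wild types and at 6.27, 6.40, 6.50 and 6.20 in the mutants. The groups did not overlap, although mutant 3 lay close to wild type 3, and the difference was -0.23 (95% interval -0.38 to -0.08, limma adjusted p = 0.0687). Grm7 was called with median centring (-0.33, limma adjusted p = 0.0250) and without mutant 3 (-0.28, limma adjusted p = 0.0269). Grm4 was at 6.07, 6.08, 6.14 and 6.18 log2 CPM in the wild types and at 6.37, 6.35, 6.29 and 6.14 in the mutants (difference 0.17, limma adjusted p = 0.157), with mutant 4 inside the wild-type range. Grm8, the remaining detected group III gene, differed by 0.18, and Grm3, of group II, by 0.31. The group I genes, which couple to phospholipase C, included Grm5 at 7 to 36 reads.

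**Figure D4:**
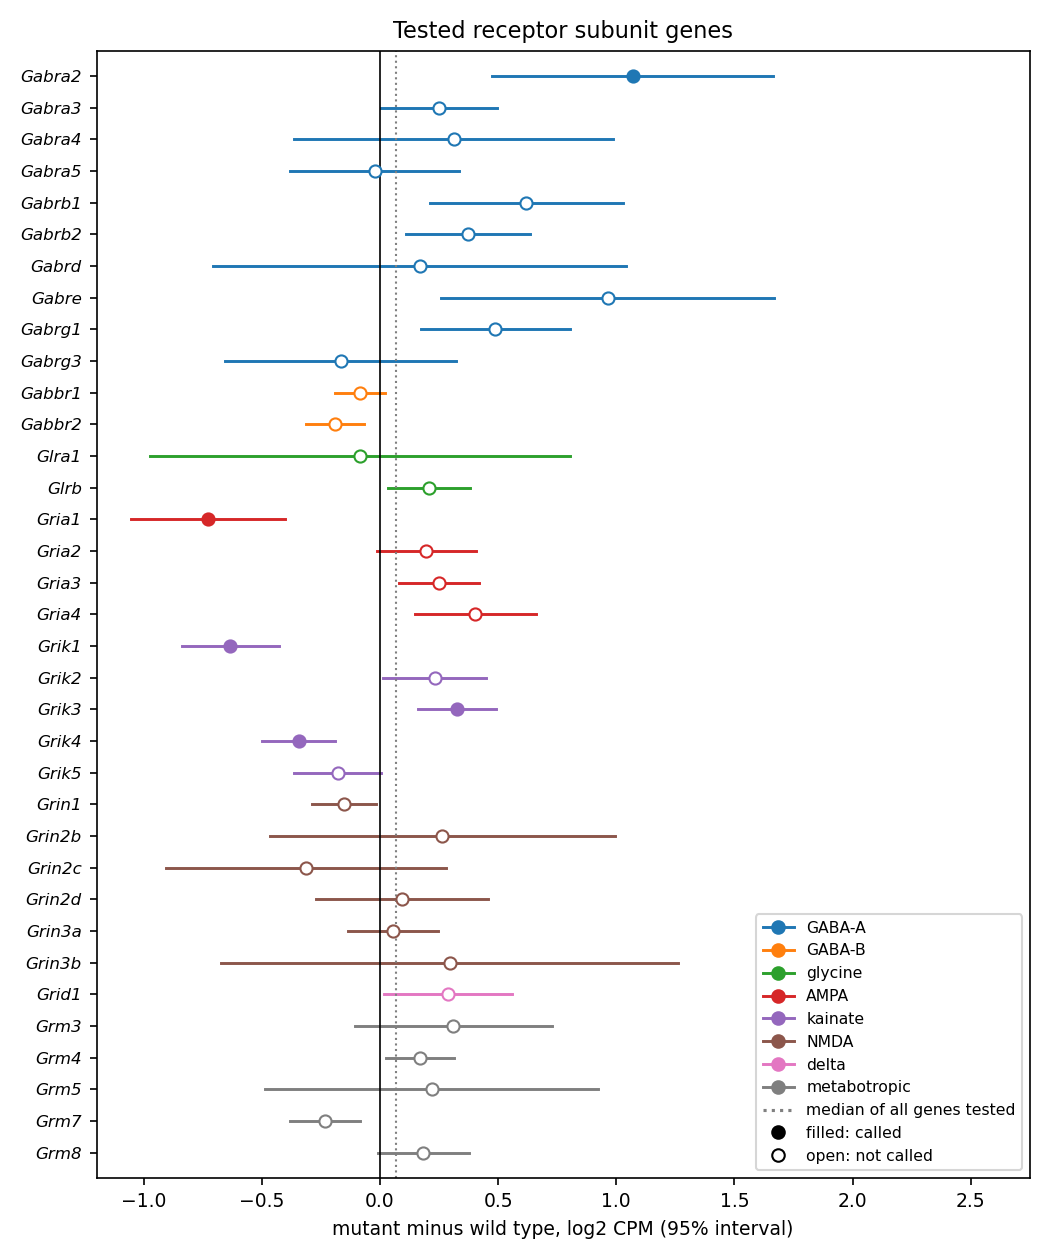
Mutant minus wild type in log2 CPM for 35 of the 40 tested receptor genes, with 95% intervals, coloured by family. Filled points mark the 5 called genes, open points the others, and the dotted line the median of all genes tested (0.07); intervals are widest for genes with few reads, such as Grin3b and Glra1.

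In wild type, 13 of the 52 genes were at 10 CPM per kb of exon or more, 15 between 1 and 10, and 24 below 1. The order per kb began with Gabbr1 (95.4), Gabbr2 (62.5), Grik1 (42.4) and Glrb (32.5), each with a wild-type range clear of its neighbour's. Lower down came Grm7 (16.1), Grik4 (15.4) and Grik5 (15), whose ranges overlapped from one to the next, and Grin1 (13.2), Grm4 (11.6) and Gria4 (11.0). With the longest transcript as the length, Gabbr1 still stood first, followed by Grik1 (78.0 CPM per kb) and Gabbr2 (72.6).

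The 12 receptor genes below the filter had at most 8 reads in any library. Gabra6, typical of cerebellar granule cells, and Gabrp had 0 reads in all 8. Gabrq had 2 to 8 reads, Gabrr1 0 to 3, Gabrr2 0 to 5 and Gabrr3 1 to 6, and Grm2 had 0 to 2 and Grm6 0 to 1. With a floor of 3 reads, a level under 0.376 to 0.485 CPM, depending on the library, was not detectable, and this covers counting error only.

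Several of the sparse receptor genes were highest in wild type 8, as were some markers of central nervous system tissue. Wild type 8 had the most reads of Glra1 (18), Grin2b (24), Grin2c (22) and Grm5 (36). Among the 12 central markers, Slc6a5, the glycine transporter of inhibitory neurons, had 5, 3, 14 and 44 reads in wild-type animals and 6, 18, 5 and 28 in mutants, and Gad2 had 14 reads in wild type 8 and 1 to 5 elsewhere. Opalin, of mature oligodendrocytes, had 0 reads in every library. The summed list, most of it Slc17a7 and Aqp4, was 198 to 230 CPM in wild-type animals and 221 to 235 CPM in mutants. Wild type 8 had the lowest sum of all 8 samples (198 CPM), unlike for Slc6a5 and Gad2. None of the list's 8 tested members was called. The part of central tissue in these levels was not tested.

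Genes that supply, clear or scaffold these receptors' signals were counted over 5 lists of 106 genes. Of these, 101 were tested, 5 were called higher (against 2.81% of all genes tested) and 7 lower (against 2.64%), and their median difference was 0.04 against 0.07 over all genes. Among genes for GABA and glycine supply and clearance, 2 of 15 tested rose and none fell. One of them was Gldc, of the glycine cleavage system, with a difference of 0.86 (limma adjusted p = 0.0452). For glutamate supply and clearance, 1 of 15 rose, Glul, which makes glutamine from glutamate (0.49, SE 0.10, limma adjusted p = 0.0101). Of 11 chloride-handling genes, 1 rose, Slc12a7, the potassium-chloride cotransporter KCC4 (0.41, SE 0.07, limma adjusted p = 0.00424). The chloride importer Slc12a2 and the exporter Slc12a5, which set the direction of GABA currents, differed by 0.11 and -0.04 (limma adjusted p = 0.332 and 0.966). The log2 ratio of Slc12a2 to Slc12a5 differed by 0.14 (exact permutation p = 0.771).

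Satellite glia, which take up and convert transmitters in ganglia, had 1 of 8 markers called higher, against 2.81% of all genes tested. Their marker sum was 1744 to 2156 CPM in wild-type animals and 1960 to 2700 CPM in mutants. Myelinating Schwann cells had 2 of 8 called higher, with sums of 2463 to 3230 and 2919 to 3532 CPM. No marker of either list was at 0, and the groups overlapped for both. The part of glia in the differences of Glul and Gldc was not tested.

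All 7 list genes called lower were in the 2 lists of receptor partner proteins. Of 22 partners of GABA and glycine receptors, none rose and 3 fell: Plcl1, which binds GABA-A subunits and phosphatases (-0.38, limma adjusted p = 0.0170), and the GABA-B auxiliary subunits Kctd8 (-0.32, limma adjusted p = 0.0246) and Kctd16 (-0.40, limma adjusted p = 0.0464). Of 38 tested partners of glutamate receptors, 1 rose and 4 fell. Dlg2, the scaffold PSD-93, rose by 0.27 (limma adjusted p = 0.0427). Cnih2, an AMPA auxiliary subunit, differed by -0.47 (limma adjusted p = 0.0372), Nptxr, the neuronal pentraxin receptor that clusters AMPA receptors, by -0.41 (limma adjusted p = 0.0163), and Ncdn, the cytoplasmic protein neurochondrin, by -0.19 (limma adjusted p = 0.0285).

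Camk2a, the kinase that phosphorylates GluA1, had the largest fall among the list genes called. Camk2a was at 8.18, 8.10, 8.11 and 8.17 log2 CPM in the wild types and at 7.31, 7.43, 7.49 and 6.80 in the mutants. All mutants lay well below the wild types, with mutant 4 lowest, and the difference was -0.89 (SE 0.11, limma adjusted p = 0.000638). Camk2a and Slc12a7 were called in all 19 alternatives. Glul was lost only without the variance trend. Nptxr was lost without the variance trend (limma adjusted p = 0.128) and without mutant 1 (0.0513). Plcl1 was lost without wild type 3 (limma adjusted p = 0.0526) and in the 6 samples numbered 1, 3 and 4, with a replicate block (0.0915) or unblocked (0.0907). Kctd8 and Ncdn were called in 12 and 10 of 19 alternatives. Among single animals left out, Kctd8 was lost without wild type 1 (0.0873), 3 (0.0519) or 8 (0.0571) or mutant 1 (0.0745), and Ncdn without wild type 1 (0.0898) or 3 (0.0719) or mutant 1 (0.0584) or 2 (0.0839).

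For 4 further list genes the call was lost when most single animals were left out; Cnih2 was called in 10, Dlg2 in 7 and Kctd16 in 8 of 19 alternatives. Cnih2 was lost without wild types 1 (limma adjusted p = 0.125), 3 (0.103) or 8 (0.0607) or mutants 1 (0.0620), 2 (0.0978) or 4 (0.0681). Dlg2 was lost without wild types 1 (limma adjusted p = 0.136), 4 (0.0866) or 8 (0.0526) or mutants 1 (0.0809), 2 (0.0586), 3 (0.0769) or 4 (0.102). Kctd16 was lost without wild types 1 (limma adjusted p = 0.0944), 3 (0.0929), 4 (0.0971) or 8 (0.0502) or mutants 1 (0.126), 2 (0.0761) or 4 (0.119). Gldc was lost without wild types 1 (limma adjusted p = 0.126), 4 (0.0674) or 8 (0.0710) or mutants 1 (0.0898), 2 (0.0845), 3 (0.0564) or 4 (0.129), and was called in 4 of 19 alternatives.

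Annotated exons of another gene overlap Gabrb1, Gria3, Gria4, Grin1, Grid1, Grik4 and Grm7 among the genes given by sample. Among the other genes reported here they overlap Glra1, Gria2, Gabra4, Gabra5, Gabrr3, Grin2b, Grin2c, Grin2d, Grin3b, Grm2, Grm6 and Grm8. Reads of those pairs may be shared. Grin1 overlaps its antisense RNA Grin1os, and Grin3b overlaps Tmem259.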

How the data were processed

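The deposited table holds moderated log2 CPM, per its name and values, in 41422 lines and 40800 distinct gene identifiers; repeated identifiers carried the same values and were used once. The submitters' processing notes name Salmon 0.11.1, DESeq2 and the build mm9, with no role or order. Reads per gene and library totals were recovered from the log2 steps (100.0% of values whole, within 0.05 reads). All genes with log2 CPM above 0 in at least 4 of 8 samples were fitted with limma 3.58.1 in R 4.3.3 (eBayes with a variance trend, two-sided, no covariate), with Benjamini-Hochberg adjustment. The procedure was run on simulated counts with the same between-animal variability set for every gene, so the run gives no error rate for the calls here. Exact permutation tests covered all 70 assignments of the 8 samples. The members and gene lists were chosen with earlier results of these data known. Values by sample are given for receptor genes called, with an unadjusted p under 0.05, or highest in log2 CPM in their family. List genes are given where called. Some genes and 1 ratio that meet these rules are not reported here. Coordinates and exon lengths are from GENCODE M21 (GRCm38), not the submitters' build. Alternatives covered scaling, filter, added CPM, variance model, Xist as a covariate, voom on recovered reads, a replicate block, thresholds and each sample left out. Tables and plots used Python 3.11.15, pandas 2.3.3, scipy 1.17.1 and matplotlib 3.10.9.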

Additional observations from a re-analysis of the deposited data

Results flagged for a closer look

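Dixon's 95% limit was applied to 62 groups of 4 samples, namely 20 receptor genes given by sample, the 8 family sums and 3 ratios in each genotype. In 1 group a sample stood apart, where chance gives about 1 in 20 (3.1). Gabbr1 was at 9.60 log2 CPM in wild type 3, against 9.51 to 9.52 in the other wild types.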

How the results depend on the processing

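All 5 called receptor genes kept their direction in all 19 alternatives, but the number called did not stay. Main counts were 423 genes higher and 397 lower, 2 and 3 receptor genes, and 5 and 7 list genes. Median centring, which moved the median difference of all genes from 0.07 to -0.03, gave 204 and 706 genes, 1 and 5 receptor genes and 3 list genes higher, and Grin2d and Grin3a were among those that changed sign. Quantile normalization gave 271 genes higher, 1 receptor gene higher and 3 list genes higher, and Grin2d changed sign. Without the variance trend limma called 67 and 75 genes, 0 and 0 receptor genes (10 and 5 at an unadjusted p under 0.05; voom called 2 and 3) and 1 and 2 list genes. Robust variances gave 1 receptor gene higher. At an adjusted p under 0.1 the counts were 876 and 612 genes and 7 and 5 receptor genes. Leaving out each animal gave 171 to 571 genes higher and 224 to 426 lower, 0 to 2 and 2 to 5 receptor genes, and 2 to 5 and 2 to 8 list genes; no receptor gene was called higher without wild type 1, mutant 1 or mutant 4 (10, 12 and 11 at an unadjusted p under 0.05 in limma). Wild types and mutants numbered 1, 3 and 4 share only a number (correlations of deviations 0.08, 0.04 and 0.06). A replicate block on that number over these 6 samples gave 303 and 333 genes, 2 and 3 receptor genes, and 2 list genes lower. In it Grik3 and Gabra2 lost their calls (limma adjusted p = 0.109 and 0.0787), and Gria4 and Gabrg1 were called (0.00718 and 0.0227). Unblocked, the 6 samples gave 177 genes higher, 1 receptor gene higher, and 2 and 2 list genes. The log2 ratio of Gria2 to Gria1 ranged from 0.75 to 1.10 and that of Grik1 to Grik2 from -0.92 to -0.79 without each animal, where 3 against 4 cannot go below an exact permutation p of 0.0571. The ratio of Slc12a2 to Slc12a5 ranged from -0.18 (without wild type 8) to 0.31 and was -0.04 without mutant 1. The cause was not tested for any of these. Depth limits the receptor genes with few reads: the 12 untested genes and the 6 tested ones below 0 log2 CPM in some sample.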
